A study of Mus musculus with 9 samples.

Results

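Ventral hippocampus of stress-susceptible mice that ran at low intensity after restraint (SUS_LE) was compared with ventral hippocampus of stress-susceptible mice that stayed sedentary (SUS). The comparison takes 6 of the 9 libraries of the series, 3 per group, chosen by their titles, and covers the 16106 of 40213 listed genes that passed a filter on expression. All animals were wild-type male C57BL/6J mice that entered housing at 8 weeks of age. Both groups were immobilised in tubes for 2 hours a day on 14 days. The SUS_LE mice then had 2 weeks of low-intensity treadmill running, and the SUS mice did none. Neither the score that defined susceptibility nor the interval between the last run and dissection is given in the labels. Each library is titled as a separate mouse. The remaining 3 libraries come from sedentary mice without restraint (SED) and are given beside the comparison, since they help to read a level.

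The ventral hippocampus sends excitatory output to amygdala, hypothalamus and prefrontal cortex and is linked to anxiety and to the control of stress hormones. Repeated restraint acts on it largely through corticosteroid receptors, and running is known for its effects on growth factors, newborn granule cells, glia and vessels in the hippocampus. Most neurons and astrocytes there carry a primary cilium, an antenna built on a basal body by intraflagellar transport and anchored by a rootlet, whose membrane holds receptors and enzymes such as Arl13b and Adcy3.

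Each of the 6 libraries held 14293445 to 15582304 counts. Values are CPM, counts scaled to library size, and fold changes are log2 values of SUS_LE over SUS from edgeR with their standard error (SE). All 15 genes of a hippocampal check list were above the filter, among them Prox1 of granule cells, Wfs1 of CA1 and Zbtb20, which stood at 571, 571 and 493 CPM in SUS_LE 1 to 3 and 618, 511 and 544 in SUS 1 to 3. Choroid plexus RNA was uneven: Ttr, the transthyretin gene of that epithelium, stood at 83.2, 1509 and 59.6 CPM in SUS_LE 1 to 3 and at 27.4, 2659 and 6085 in SUS 1 to 3. SUS 1, SUS_LE 1 and SUS_LE 3 were thus poor in choroid plexus RNA and the other 3 were rich in it. Libraries also differed in how counts followed the GC content of transcripts, with a rank correlation of deviations with GC content of 0.42, 0.05 and 0.24 in SUS 1 to 3 and −0.08, −0.17 and −0.24 in SUS_LE 1 to 3.

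Differences between exercised and non-exercised mice were small, and 0 genes passed an adjusted p of 0.05 by edgeR (0% of those tested). The smallest edgeR adjusted p was 0.0560, for Acap2. At an unadjusted p of 0.05 edgeR counted 2205 genes, 13.7% of those tested, where 805 would be expected with no difference at all. Of these, 1159 stood higher in SUS_LE (7.2% of tested genes) and 1046 lower (6.49%). The 3 SUS_LE values did not overlap the 3 SUS values in 2737 genes (17%), of which 1387 were higher (8.61%) and 1350 lower (8.38%). With no difference, a gene separates in this way, in either direction, with a probability of 0.1. Limma voom also called 0 genes at an adjusted p of 0.05, and DESeq2 called 180 (1.12%), with 107 higher (0.664%) and 73 lower (0.453%). DESeq2 gave an adjusted p to 5489 genes only, and its calls are 3.28% of those. With the mean level of 20 choroid plexus genes as a further term, edgeR called 429 genes (2.66%), 222 higher (1.38%) and 207 lower (1.29%). Those 429 held 131 of the DESeq2 calls, which is 72.8% of the DESeq2 list and 30.5% of the longer one, all in the same direction in both. With SUS 1 left out edgeR called 83 genes, with SUS 2 left out 184, and with any other single library left out 0 to 8. Without the expression filter edgeR called 430 genes, of which 409 had also been tested with it, and with a stricter filter it called 0. The cause of this difference was not tested. The count with the choroid plexus term was 4 without SUS 1, 72 without SUS_LE 1 and 868 without SUS 2. Scaled to total counts alone, 743 genes were higher and 1520 lower at an unadjusted p of 0.05, against the 1159 and 1046 above. In bulk tissue a lower level can come from fewer cells of a type or from less RNA per cell, and these cannot be told apart here.

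**Figure D1:**
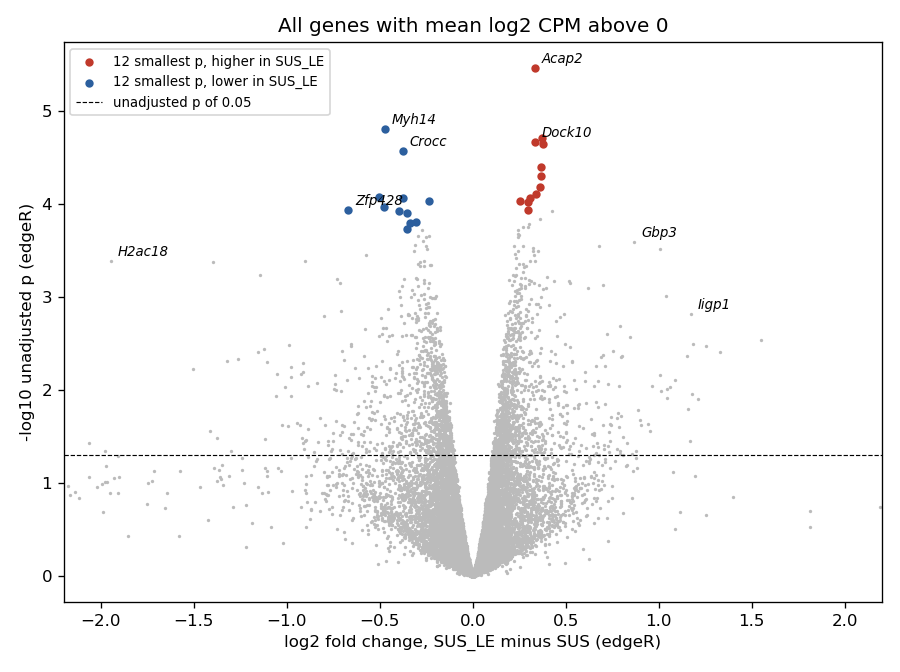
Each grey point is a gene with a mean log2 CPM above 0, placed by its log2 fold change (SUS_LE minus SUS, x axis) and by −log10 of its unadjusted edgeR p (y axis), with the 12 genes of smallest p in each direction in red and blue. The leading genes lie between −0.67 and 0.37 in log2 fold change, and genes with larger folds such as Gbp3, Iigp1 and H2ac18 have larger p. The 14 genes beyond the x axis limits of −2.2 and 2.2, Ttr, Derpc and Chtf8 among them, are not drawn.

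Fold changes followed the GC content of transcripts. Across 14048 genes with a known value the rank correlation of fold change with GC content was −0.41 and with transcript length 0.13. In the lowest of 10 equal bins of GC content the median log2 fold change was 0.10, with 296 genes higher and 10 lower at an unadjusted p of 0.05. In the highest bin the median was −0.12, with 12 genes higher and 292 lower. Genes are not independent replicates, and all of them share the same 6 libraries, so these are descriptions. With the trends on GC content and length removed from each library, 0 genes passed by edgeR and the smallest adjusted p was 0.165. In that fit the log2 fold change was 0.27 for Acap2, 0.16 for Nebl, −0.28 for Crocc and −0.13 for Cep170b. Without removal these were 0.34, 0.25, −0.38 and −0.23, while Ttll5 moved from −0.31 to −0.34 on removal. List medians were 0.46 with removal and 0.53 without for interferon response genes, −0.03 and −0.07 for tubulins, and 0.12 and 0.11 for myelin genes. Folds below are without removal unless stated. The cause of the trend was not tested, and GC content is given beside the leading genes.

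**Figure D2:**
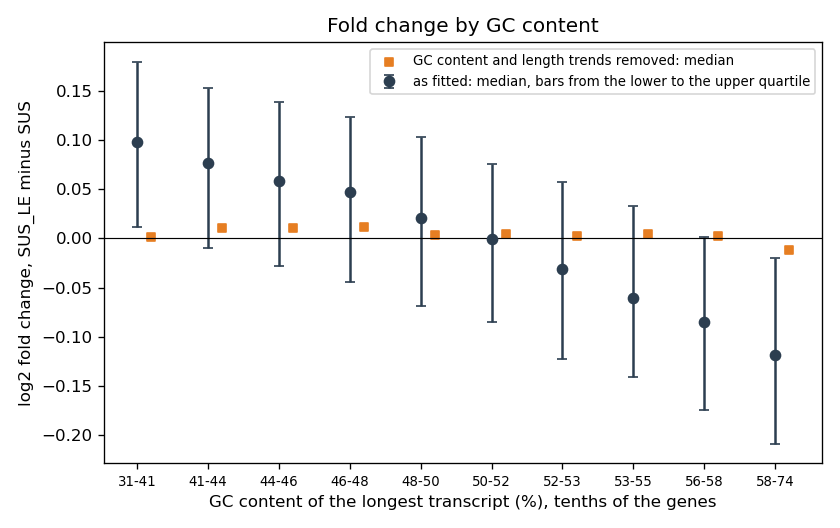
Circles give the median log2 fold change (SUS_LE minus SUS) of genes in 10 equal bins of transcript GC content, with bars from the lower to the upper quartile, and squares the median after GC and length trends were removed. The medians fall from 0.10 in the lowest bin to −0.12 in the highest, and lie between −0.01 and 0.01 after removal.

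The 12 genes with the smallest p among those that stood higher after exercise were led by Acap2, Ints6l, Dock10 and Lyst. Acap2, a GTPase-activating protein for Arf6 on recycling endosomes, stood at 177, 178 and 171 CPM in SUS_LE 1 to 3, 136, 143 and 138 in SUS 1 to 3 and 178, 163 and 178 in SED 1 to 3 (log2 fold change of 0.34, SE 0.05, adjusted p = 0.0560 by edgeR). Every exercised library was above every SUS library, and the SED values lay near the exercised ones. DESeq2 put its adjusted p at 2.63e-05, and edgeR with the choroid plexus term at 0.00721. Ints6l, a relative of the Integrator subunit Ints6, stood at 86.1, 78.1 and 79.04 CPM in SUS_LE and 60.8, 64.4 and 62.9 in SUS (log2 fold change of 0.37, SE 0.07, adjusted p = 0.0728 by edgeR). Dock10, an exchange factor for Cdc42 and Rac that shapes dendritic spines, stood at 82.2, 81.7 and 82.6 in SUS_LE and 66.8, 66.4 and 62.4 in SUS (log2 fold change of 0.33, SE 0.06, adjusted p = 0.0728 by edgeR). The exercised libraries were nearly equal in Dock10 and all above the 3 SUS libraries. Lyst, which regulates lysosome size and is mutated in beige mice, stood at 102, 101 and 89.04 against 74.9, 72.7 and 77.5 CPM (log2 fold change of 0.37, SE 0.07, adjusted p = 0.0728 by edgeR). The groups were separate in Lyst, and the SED values of 89.3, 76.6 and 86.8 ran from the level of SUS to that of SUS_LE 3.

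The other 8 had an edgeR adjusted p of 0.0922 each. Mal, a raft proteolipid of compact myelin, stood at 122, 113 and 109.9 CPM in SUS_LE and 81.1, 99.6 and 87.04 in SUS (0.37, SE 0.07). Tjp1, the tight junction scaffold ZO-1, stood at 133, 129 and 127 against 95.8, 109.5 and 109 CPM (0.31, SE 0.06), and ATP8, a mitochondrially encoded subunit of ATP synthase, at 3489, 3573 and 4028 against 2872, 3084 and 2804 (0.34, SE 0.07). In none of these did the groups overlap, and the SUS mean was below the SED mean in each. Taok1, a Ste20-type kinase that acts on microtubules and in Hippo signalling, stood at 234, 242 and 247 in SUS_LE, 175, 214 and 201 in SUS and 259, 243 and 249 in SED (0.30, SE 0.06). Csmd3 (0.37), a synaptic CUB and sushi domain protein, Xkr4 (0.36), a member of the scramblase family of Xkr proteins, Nebl (0.25), an actin-binding nebulin relative, and Ano3 (0.30), of the anoctamin family, complete the set. Transcript GC content of the 11 of these 12 genes with a value was 39.5% to 48.9%. All 12 passed the adjusted p of 0.05 by DESeq2 and with the choroid plexus term. They were picked for small p in the same libraries, so these passes are not independent support.

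Among genes that stood lower after exercise the 12 with the smallest p were led by Myh14, a cytoskeletal motor gene, and Crocc, a gene of the ciliary rootlet. Myh14, a non-muscle myosin II heavy chain, stood at 24.8, 28.3 and 27.8 CPM in SUS_LE, 37.1, 36.2 and 38.9 in SUS and 38.8, 35.7 and 31.97 in SED (log2 fold change of −0.47, SE 0.08, adjusted p = 0.0728 by edgeR). All 3 exercised libraries were below all 6 of the others. Crocc, which encodes rootletin, the filament of the ciliary rootlet, stood at 58.2, 57.04 and 64.9 CPM in SUS_LE and 80.97, 80.99 and 71.6 in SUS (log2 fold change of −0.38, SE 0.07, adjusted p = 0.0735 by edgeR). SUS_LE 3 and SUS 3 were the nearest pair in Crocc, and the SED values of 72.04, 65.7 and 71.03 lay between the groups, with SED 1 just above SUS 3. Map1lc3a, the autophagosome protein LC3A, stood at 34.4, 34.8 and 35.5 against 47.98, 42.5 and 45.4 (log2 fold change of −0.38, SE 0.08, adjusted p = 0.0922 by edgeR). Cep170b, a relative of the centriolar protein Cep170, stood at 212, 207 and 217 against 257, 243 and 247 (log2 fold change of −0.23, SE 0.05, adjusted p = 0.0922 by edgeR). Slc7a10, the astrocytic and neuronal transporter of serine and glycine known as Asc-1, stood at 16.4, 17.8 and 18.04 in SUS_LE, 21.4, 24.98 and 26.5 in SUS and 26.2, 23.2 and 21.8 in SED (log2 fold change of −0.48, SE 0.10, adjusted p = 0.0922 by edgeR).

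Bsg, basigin, a chaperone of lactate transporters abundant in brain endothelium and choroid plexus, stood at 275, 299 and 286 CPM in SUS_LE and 335, 354 and 411 in SUS (log2 fold change of −0.35, SE 0.07, adjusted p = 0.0922 by edgeR). SUS 3, the library richest in Ttr, was also the highest in Bsg. The zinc finger genes Zfp579 (−0.50, SE 0.10), Zfp428 (−0.67, SE 0.14) and Zfp385a (−0.40, SE 0.08) had the same edgeR adjusted p of 0.0922. Zfp428 was the lowest in level, at 6.91, 6.24 and 5.58 CPM in SUS_LE against 10.6, 8.74 and 10.5 in SUS. Ttll5, a tubulin polyglutamylase, Tmem132a, a membrane protein, and G6pc3, a ubiquitous glucose-6-phosphatase, followed at −0.31, −0.34 and −0.36 (edgeR adjusted p = 0.0984 for each). Transcript GC content of these 12 genes was 47.2% to 64.4%, and at least 57.04% in the 11 other than Ttll5. DESeq2 called 7 of the 12 and gave the other 5, Myh14, Zfp579, Slc7a10, Zfp428 and G6pc3, no adjusted p. The edgeR fit with the choroid plexus term called all 12. These 12 were also picked for small p in the same libraries.

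**Figure D3:**
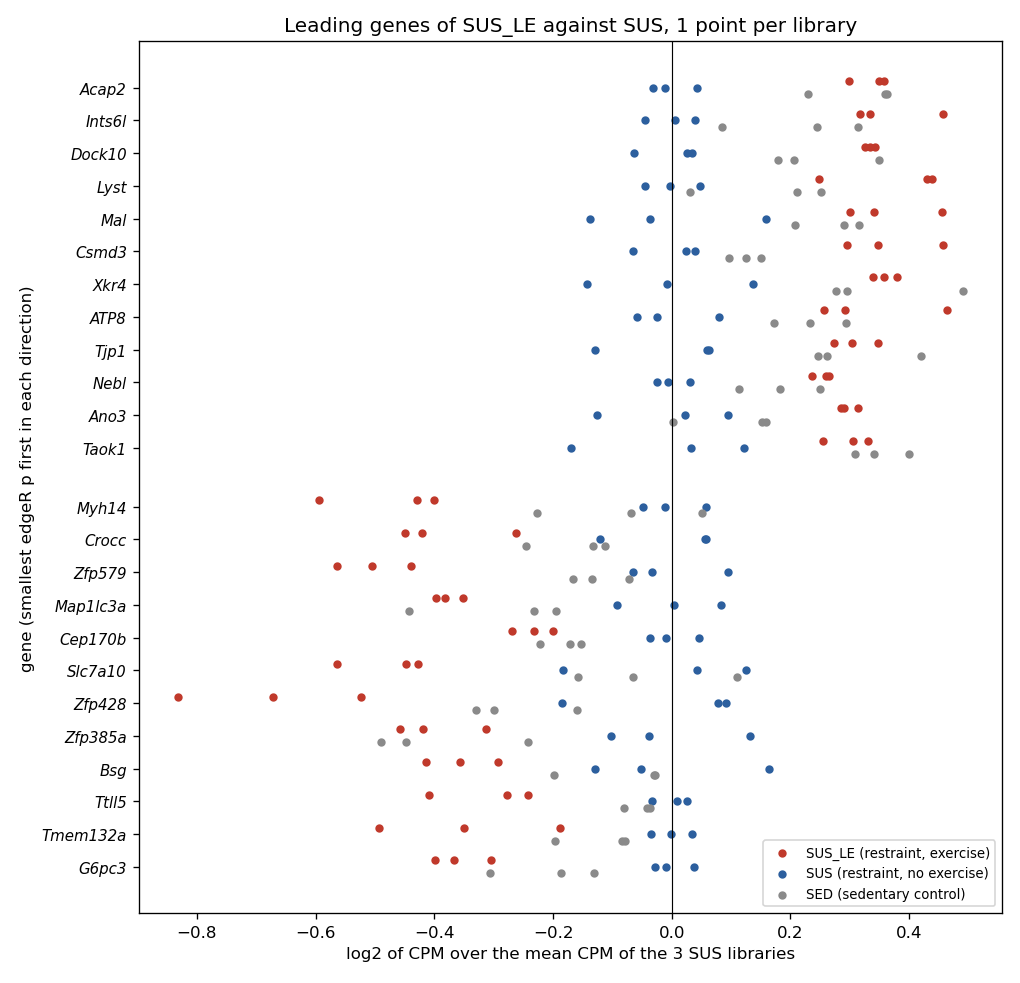
Each point is 1 library, placed by the log2 of its CPM over the mean CPM of the 3 SUS libraries, for the 12 genes of smallest edgeR p in each direction. Red SUS_LE points and blue SUS points do not overlap in any of the 24 genes, which were chosen for small p, and grey SED points lie near either group or between them.

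With the choroid plexus term the 8 smallest p in each direction brought in further genes. Higher were Itfg1, an integrin-alpha FG-GAP protein (0.38, edgeR adjusted p = 0.00736 with that term and 0.173 without), Arhgap21, a GTPase-activating protein (0.32, 0.0114 and 0.138), and Rapgef5, an exchange factor for Rap (0.31, 0.0114 and 0.107). First among the lower genes was the predicted gene Gm33272 (−2.43, 0.00274 and 0.330). Also lower were Shank1, a scaffold of the postsynaptic density (−0.37, 0.00721 and 0.146), the histone methyltransferase Kmt2d (−0.32, 0.00721 and 0.129), the transcription factors Zbtb7a (−0.33, 0.00721 and 0.102) and Nfix (−0.30, 0.00858 and 0.102), and Prr36 (−0.48, 0.00838 and 0.129). Shank1 stood at 712, 712 and 686 CPM in SUS_LE, 998, 806 and 778 in SUS and 693, 741 and 777 in SED. SUS 1 was the highest of the 9 libraries in Shank1, and the other 2 SUS libraries were close to SED 3. SUS 1 was also the highest SUS library in Kmt2d (326, 276 and 274 CPM in SUS 1 to 3) and Zbtb7a (165, 143 and 139). The same held for Nfix (481, 436 and 429) and Prr36 (83.3, 68.7 and 70.0). SUS 1 was the lowest SUS library in Itfg1 (131, 176 and 163), Arhgap21 (255, 307 and 303) and Rapgef5 (142, 159 and 161). With the term edgeR called 429 genes over all libraries and 4 without SUS 1. Malat1, an abundant nuclear noncoding RNA, is also among the lower genes with this term. Its edgeR adjusted p was 0.00721 with the term and 0.420 without. The groups overlapped in Malat1 (7554, 6226 and 7392 CPM in SUS_LE against 9539, 7701 and 7062 in SUS).

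The largest folds came from genes with few counts or with reads that a near-identical or overlapping gene can share. Derpc and Chtf8 have the same start and end in the RefSeq annotation of GRCm38.p6 (chr8:106883863-106893593), so reads can be given to either. Derpc stood at 36.3, 34.7 and 34.4 CPM in SUS_LE and 3.92, 0.416 and 1.44 in SUS, and Chtf8 at 0, 0 and 0 and 35.7, 34.9 and 35.6. Their sum was 36.3, 34.7 and 34.4 CPM in SUS_LE, 39.7, 35.3 and 37.1 in SUS and 34.9, 35.04 and 37.4 in SED. The counts went to different names in the 2 groups while the sums overlapped, and no fold is given for either gene. In SED, libraries 1 and 2 were counted mostly as Chtf8 and library 3 mostly as Derpc. H2ac18, a histone H2A gene with the near-identical copy H2ac19, stood at 0.479, 1.82 and 0.953 CPM in SUS_LE and 2.68, 5.07 and 4.93 in SUS. With H2ac19 added the sums were 11.2, 13.9 and 12.1 and 11.4, 14.4 and 14.7, which overlapped. Gm2026 and Gm33272 are predicted genes. Gm2026 stood at 10.2, 12.2 and 16.9 CPM in SUS_LE and 0.756, 6.52 and 0.891 in SUS (log2 fold change of 2.27, SE 0.78, adjusted p = 0.296 by edgeR), and Gm33272 at 1.848, 1.494 and 1.498 against 14.2, 3.40 and 2.67 (log2 fold change of −2.06, SE 0.78, adjusted p = 0.330 by edgeR), with SUS 1 far above the other SUS libraries in Gm33272.

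Among the rest of that set, 6 genes stood higher. Tmem252 had 1.57, 2.08 and 1.02 CPM in SUS_LE and 0.894, 0.347 and 0.343 in SUS (log2 fold change of 1.55, SE 0.45, adjusted p = 0.151 by edgeR). Sfrp2, a secreted Wnt antagonist, had 1.03, 1.82 and 2.04 against 0.619, 0.833 and 0.685 (log2 fold change of 1.19, SE 0.35, adjusted p = 0.158 by edgeR). Ifitm1, Irf7 and Iigp1 belong to the interferon response, and the last of the 6 was the predicted gene Gm45916. Lower were Jmjd7, a lysyl hydroxylase (−1.50, SE 0.48), Pierce1, a ciliary microtubule inner protein (−1.40, SE 0.33), Cmtm8, a MARVEL domain protein (−1.15, SE 0.28), and the noncoding or predicted genes 4833439F03Rik (−1.26) and Gm41559 (−1.16). Pierce1 stood at 1.03, 0.780 and 1.09 CPM in SUS_LE and 1.51, 3.05 and 3.08 in SUS. The edgeR adjusted p values of these 11 genes ran from 0.107 to 0.228.

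Subunits of the respiratory chain are encoded in part by the mitochondrial genome. Of 13 mRNAs made from the mitochondrial genome 12 stood higher after exercise and 1 lower, with a median log2 fold change of 0.16 against 0.00 over all tested genes, of which 50.3% stood higher and 49.7% lower. At an unadjusted p of 0.05 edgeR counted 8 of the 13 as higher and 0 as lower, against 7.2% and 6.49% of all tested genes. DESeq2 called 6 at an adjusted p of 0.05, against 1.12% of all tested genes. These shares of all tested genes are the background for the list counts that follow. These 13 mRNAs are cut from shared precursor transcripts and are not independent. ATP8, ND4 and ATP6 had no GC value, so removal of the GC and length trends left their folds as they were. The list median was 0.16 with removal and without, and the part of the GC trend in it was not tested. Together they made up 13.9%, 13.5% and 14.6% of counts in SUS_LE 1 to 3 and 12.2%, 13.1% and 12.4% in SUS 1 to 3, without overlap. ND4, a core subunit of complex I, stood at 15219, 15135 and 16346 CPM in SUS_LE and 12538, 14030.3 and 13214 in SUS (log2 fold change of 0.23, SE 0.06, adjusted p = 0.138 by edgeR). COX1, the catalytic subunit of complex IV, stood at 31559.5, 30928 and 32924 against 25807, 29275 and 27564 (log2 fold change of 0.21, SE 0.06, adjusted p = 0.171 by edgeR), and ATP6 of complex V at 16217, 15658 and 17175 against 13962, 14676 and 13619 (log2 fold change of 0.22, SE 0.06, adjusted p = 0.148 by edgeR). The groups did not overlap in these 3 genes. The member with a lower value was ND6 (−0.30, SE 0.23), named after its values were seen, which is encoded on the opposite strand from the rest. SED libraries stood in between for ND4 (14999, 14499 and 14791 CPM).

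Among nuclear genes of the same complexes more stood lower than higher, and their difference from the mitochondrial set was not tested. Of 37 complex I genes 26 stood lower and 11 higher (median −0.04), with 5 lower and 0 higher at an unadjusted p of 0.05. Of 39 genes of complexes II to V 24 stood lower and 15 higher (median −0.05), with 9 lower and 0 higher. Uqcrq, a complex III subunit, stood at 54.5, 58.1 and 56.7 CPM in SUS_LE and 70.2, 63.2 and 69.6 in SUS (log2 fold change of −0.26, SE 0.06, adjusted p = 0.107 by edgeR). Atp5d, a subunit of the ATP synthase rotor, stood at 69.6, 70.7 and 73.8 against 85.6, 78.6 and 89.03 (log2 fold change of −0.24, SE 0.06, adjusted p = 0.116 by edgeR). Both were separate between groups, and both were called by DESeq2 (adjusted p = 0.0274 and 0.0346). Ndufv3 (−0.21, SE 0.06) and Ndufa11 (−0.25, SE 0.08) of complex I came next, each without overlap, and DESeq2 called 0 of the complex I genes.

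**Figure D4:**
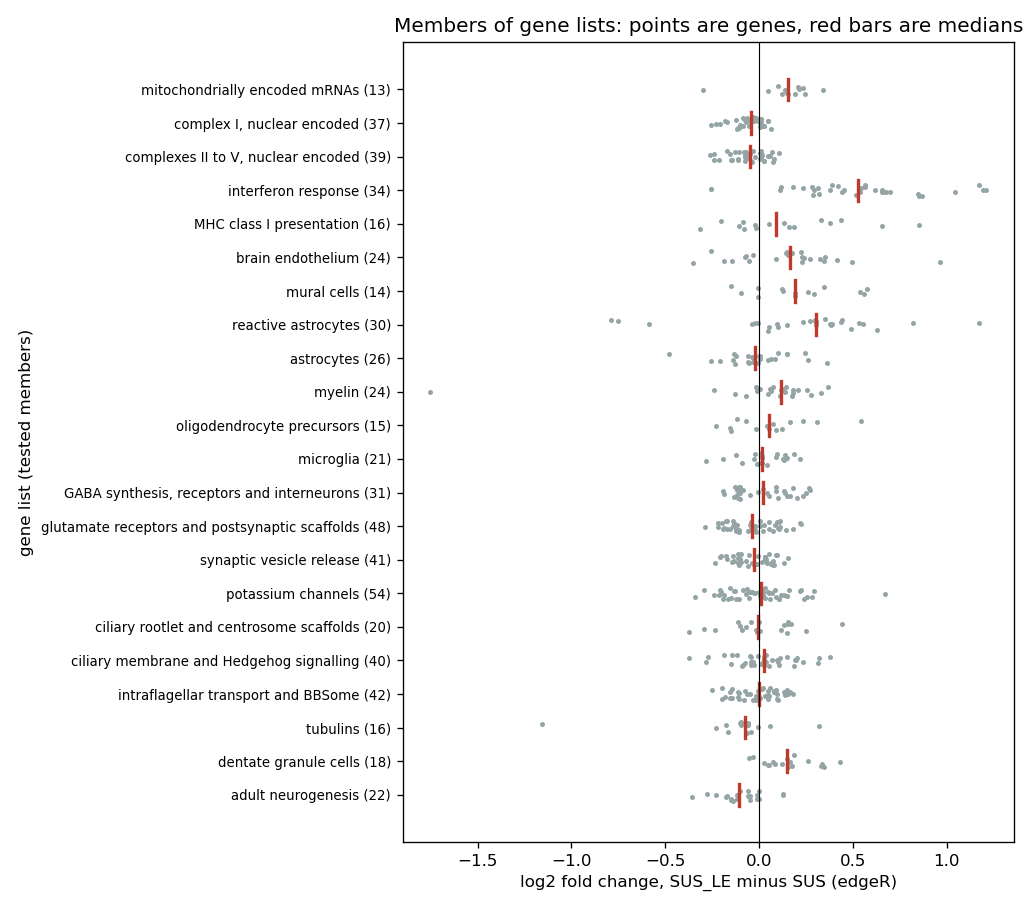
Grey points are genes, placed by log2 fold change (SUS_LE minus SUS), in rows by gene list with the number of tested members in brackets, and red bars are list medians. The interferon response (0.53), reactive astrocyte (0.30) and mitochondrially encoded (0.16) medians lie to the right of 0, while nuclear respiratory chain lists lie slightly to the left.

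More myelin genes stood higher than lower. Of 24, 18 stood higher and 6 lower (median 0.11), with 4 higher and 0 lower at an unadjusted p of 0.05, against 7.2% and 6.49% of all genes. Beside Mal these were Tspan2, a tetraspanin of oligodendrocytes, at 95.96, 89.6 and 81.9 CPM in SUS_LE and 63.4, 79.2 and 70.5 in SUS (log2 fold change of 0.33, SE 0.07, adjusted p = 0.106 by edgeR), Ermn, an actin-binding myelin protein (log2 fold change of 0.28, SE 0.07, adjusted p = 0.108 by edgeR), and Gjc3, the connexin Cx29 (log2 fold change of 0.21, SE 0.07, adjusted p = 0.205 by edgeR). DESeq2 called Mal, Tspan2 and Ermn. In Tspan2 and Ermn the SED values (89.6, 93.5 and 92.7 and 57.01, 60.9 and 58.3 CPM) were at the level of the exercised libraries. The mean level of the list was 0.12, 0.06 and −0.11 in SUS_LE 1 to 3 and −0.20, 0.14 and −0.02 in SUS 1 to 3 (log2, centred on these 6), so that SUS 2 was the highest and the groups overlapped. The list median was 0.00 without SUS_LE 1. Oligodendrocyte precursor genes had 4 of 15 members higher and 0 lower at an unadjusted p of 0.05 (median 0.05): Ptprz1, a receptor phosphatase (0.16, SE 0.05), Lhfpl3 (0.31, SE 0.11), Enpp6, a marker of newly forming oligodendrocytes (0.55, SE 0.21), and the proteoglycan Vcan (0.23, SE 0.10). Their median was 0.02 without SUS_LE 1 and 0.03 without SUS 3.

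Astrocyte genes stood apart in both directions. Of 26, 12 stood higher and 14 lower (median −0.02), with 5 higher and 4 lower at an unadjusted p of 0.05. Slc4a4, the sodium bicarbonate cotransporter, stood at 175, 187 and 189 CPM in SUS_LE and 153, 165 and 147 in SUS (log2 fold change of 0.24, SE 0.05, adjusted p = 0.0998 by edgeR). Aqp4, the water channel of astrocyte endfeet, stood at 162, 157 and 174 against 127, 139 and 147 (log2 fold change of 0.26, SE 0.06, adjusted p = 0.116 by edgeR). Sox9, a transcription factor of astrocyte identity, stood lower at 58.9, 57.6 and 67.8 against 75.1, 69.4 and 75.7 (log2 fold change of −0.26, SE 0.07, adjusted p = 0.148 by edgeR), as did Slc7a10. None of the 4 overlapped between groups, and DESeq2 called Slc4a4 and Aqp4. Gfap, the intermediate filament of astrocytes, overlapped at 244, 229 and 233 against 248, 197 and 237 CPM (log2 fold change of 0.05, SE 0.07, adjusted p = 0.811 by edgeR).

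A list of reactive astrocyte genes had 24 of 30 members higher and 6 lower (median 0.30), with 6 higher and 0 lower at an unadjusted p of 0.05. A further 8 of its 38 genes, Lcn2 and Timp1 among them, did not pass the expression filter. Osmr, the oncostatin M receptor, stood at 9.03, 8.96 and 8.85 CPM in SUS_LE and 6.12, 6.25 and 6.72 in SUS (log2 fold change of 0.49, SE 0.13, adjusted p = 0.138 by edgeR), and Ptgs2, the inducible cyclooxygenase, at 26.9, 27.7 and 23.5 against 22.3, 21.4 and 19.5 (log2 fold change of 0.31, SE 0.09, adjusted p = 0.171 by edgeR). In both genes every exercised library was above every SUS library. The list shares H2-D1, H2-T23, Psmb8, Iigp1 and Gbp2 with the immune lists and Ptgs2 with the immediate early genes. Its mean level was lowest in SUS 2 (−0.32), without which its median was 0.17. The groups overlapped in this mean level, with SUS 3 (0.12) above SUS_LE 1 (0.09) and SUS_LE 2 (0.10). Microglial genes had 1 of 21 members higher and 1 lower at an unadjusted p of 0.05 (median 0.01): P2ry12, a receptor of resting microglia (0.22, SE 0.08), and C1qa of complement (−0.28, SE 0.12).

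Interferon response genes were higher at low absolute levels. Of 34 tested, 32 stood higher and 2 lower, with a median log2 fold change of 0.53, and 14 were higher and 0 lower at an unadjusted p of 0.05. Gbp3, a guanylate-binding GTPase of cell-autonomous immunity, stood at 5.41, 8.32 and 8.17 CPM in SUS_LE, 4.88, 3.61 and 3.50 in SUS and 5.69, 4.77 and 4.66 in SED (log2 fold change of 0.87, SE 0.19, adjusted p = 0.102 by edgeR). Irgm1, an immunity-related GTPase that regulates autophagy, stood at 8.14, 8.77 and 8.65 against 6.12, 5.48 and 4.39 (log2 fold change of 0.68, SE 0.15, adjusted p = 0.102 by edgeR). Gbp7 stood at 7.73, 9.22 and 9.53 against 5.64, 3.96 and 6.72 (log2 fold change of 0.70, SE 0.17, adjusted p = 0.116 by edgeR). In these 3 genes the groups did not overlap, and SUS_LE 1 was the lowest exercised library. Ifitm3, a membrane protein that blocks viral entry, stood at 10.95, 11.4 and 10.7 against 7.84, 5.83 and 7.88 (log2 fold change of 0.62, SE 0.15, adjusted p = 0.116 by edgeR). Iigp1 (1.17, SE 0.31) reached 2.26, 6.11 and 3.27 CPM in SUS_LE, Irf7, a master regulator of type I interferon, 1.51, 1.82 and 2.93 against 0.894, 0.763 and 1.03 in SUS, and Ifitm1 2.26, 2.14 and 2.04 against 0.412, 0.486 and 1.64. DESeq2 gave 0 of the 34 an adjusted p, and the choroid plexus term brought 6 past it in edgeR.

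The libraries were unequal in this response. The mean level of the 34 genes was 0.01, 0.23 and 0.46 in SUS_LE 1 to 3 and −0.28, −0.31 and −0.11 in SUS 1 to 3, and 0.11, −0.03 and −0.17 in SED 1 to 3, on the log2 scale centred on the first 6. SUS_LE 3 was the highest and SUS_LE 1 lay inside the range of SED. Without SUS_LE 3 the list median was 0.17, and over the other 5 libraries left out in turn it was at most 0.64. Of 16 genes that present antigen on MHC class I, 3 stood higher and 2 lower at an unadjusted p of 0.05 (median 0.09). That median was −0.03 without SUS_LE 2, −0.01 without SUS 1 and 0.00 without SUS 2, so its sign rests on single libraries, and it was 0.24 without SUS 3 and 0.15 without SUS_LE 3. B2m, the light chain of MHC class I, stood at 74.1, 83.8 and 91.1 CPM in SUS_LE, 64.1, 61.3 and 72.4 in SUS and 68.9, 64.8 and 63.7 in SED (log2 fold change of 0.33, SE 0.08, adjusted p = 0.107 by edgeR), without overlap, and H2-D1, a heavy chain, at 18.9, 21.6 and 19.6 against 14.9, 13.3 and 16.2 (log2 fold change of 0.43, SE 0.11, adjusted p = 0.116 by edgeR). The chaperone Calr (−0.21, SE 0.07) and the immunoproteasome subunit Psmb10 (−0.32, SE 0.12) stood lower.

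Promoters of the leading interferon genes are shown because these genes stood higher together. Interferon-regulated promoters commonly hold the response element ISRE, searched here by its core GAAANNGAAA on both strands (TTTCNNTTTC on the other) in 300 bases, from 250 before to 50 after each RefSeq start (GRCm38.p6). The core was present in 16 of the 26 tested interferon genes with a promoter in the table (61.5%), in 3 of 14 MHC class I genes (21.4%) and in 435 of 12182 tested genes (3.57%). Among the 14 interferon genes under an unadjusted p of 0.05, 12 had a promoter there and 7 of these held the core (58.3%), so the share was no higher than in the list as a whole. A match describes letters in this window and shows neither binding nor use. The 150 bases before the start are printed for 4 genes on the strand of the gene, 5′ to 3′, with each match in capitals, which run on where 2 matches overlap.
Gbp3, chr3:142559894-142560043, plus strand: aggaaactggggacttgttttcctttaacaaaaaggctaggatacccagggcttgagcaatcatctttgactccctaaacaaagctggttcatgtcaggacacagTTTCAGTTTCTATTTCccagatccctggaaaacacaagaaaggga
Irgm1, chr11:48871421-48871570, minus strand: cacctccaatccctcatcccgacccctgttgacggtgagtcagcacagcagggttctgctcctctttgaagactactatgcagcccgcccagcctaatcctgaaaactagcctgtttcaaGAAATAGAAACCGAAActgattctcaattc
Gbp7, chr3:142530186-142530335, plus strand: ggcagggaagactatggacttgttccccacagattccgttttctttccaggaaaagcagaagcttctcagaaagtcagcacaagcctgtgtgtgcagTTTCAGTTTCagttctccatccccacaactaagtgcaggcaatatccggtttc
B2m, chr2:122147537-122147686, plus strand: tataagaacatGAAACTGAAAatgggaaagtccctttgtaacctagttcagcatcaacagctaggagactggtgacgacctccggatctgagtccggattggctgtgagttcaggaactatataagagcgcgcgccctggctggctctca
Gbp3 and Irgm1 have 2 overlapping matches each, and Gbp7 and B2m have 1. A further RefSeq promoter of Gbp3, not printed, had 0. Ifitm3 had 2 matches in its window, both after the start, and H2-D1 had 0.

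More vessel genes stood higher than lower too. Of 24 brain endothelial genes 16 stood higher and 8 lower (median 0.16), with 9 higher and 1 lower, Bsg, at an unadjusted p of 0.05. Abcb1a, the drug efflux pump P-glycoprotein of the blood-brain barrier, stood at 42.98, 38.2 and 39.5 CPM in SUS_LE, 31.5, 29.8 and 33.3 in SUS and 32.6, 31.3 and 37.1 in SED (log2 fold change of 0.35, SE 0.08, adjusted p = 0.102 by edgeR). Slc2a1, the glucose transporter GLUT1, stood at 62.1, 63.7 and 59.9 against 52.5, 50.04 and 55.99 (log2 fold change of 0.23, SE 0.07, adjusted p = 0.147 by edgeR), and Ptprb, the endothelial phosphatase VE-PTP, at 71.9, 62.4 and 78.6 against 55.1, 49.2 and 62.9 (log2 fold change of 0.35, SE 0.09, adjusted p = 0.148 by edgeR). Abcb1a and Slc2a1 did not overlap between groups, whereas Ptprb of SUS 3 exceeded SUS_LE 2 slightly. SUS 2 was the lowest library in all 3 vascular and meningeal lists, with mean levels of −0.20 for endothelium, −0.47 for mural cells and −0.88 for meningeal fibroblasts. Without SUS 2 the endothelial median was 0.11, the mural median 0.09 and the meningeal median −0.02, against 0.16, 0.19 and 0.27 with it. The meningeal median was also 0.11 without SUS_LE 3, 0.45 without SUS_LE 2 and 0.52 without SUS 3. Rgs5, a pericyte marker, was the 1 of 14 mural genes under an unadjusted p of 0.05 (0.12, SE 0.05).

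**Figure D5:**
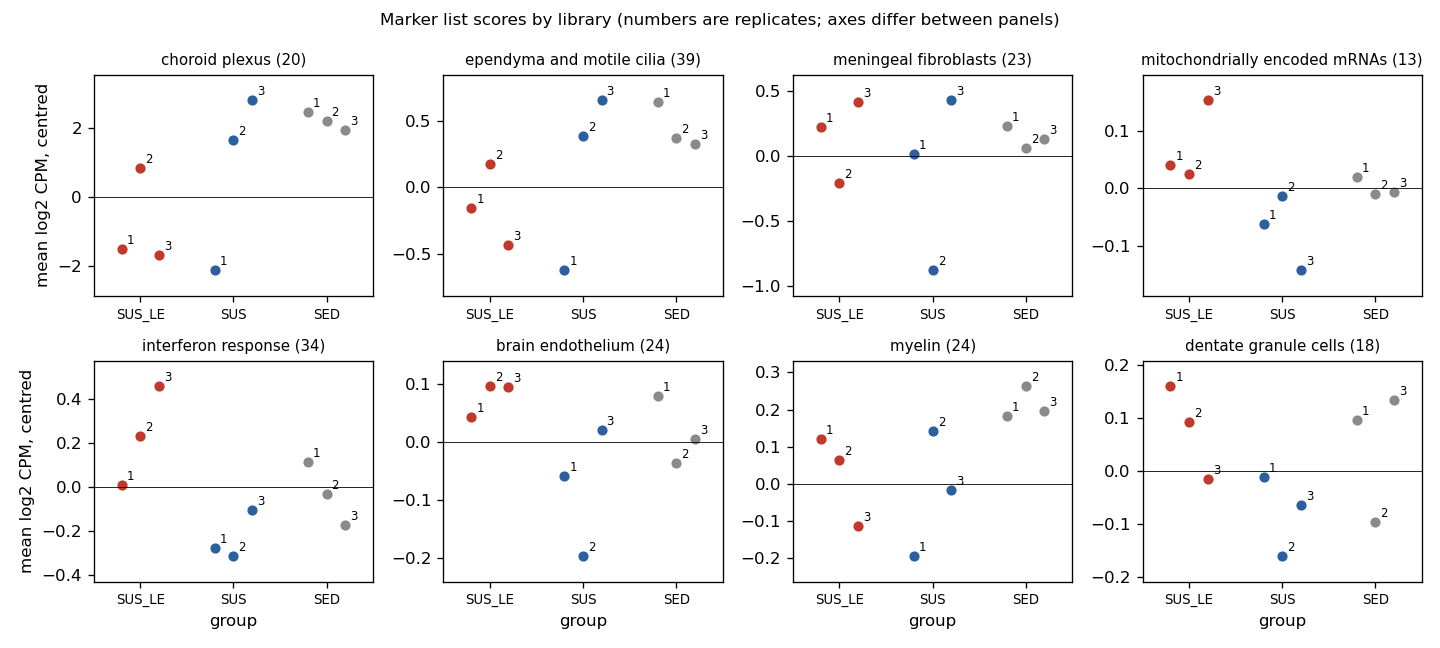
Each point is the mean log2 CPM of a marker list in 1 library, centred on the SUS and SUS_LE libraries, with the number of genes in brackets, the replicate beside the point and a separate y axis in each panel. The choroid plexus list spans −2.13 to 2.81 and splits both groups, SUS 2 stands low at −0.88 in meningeal genes, and the mitochondrial, interferon and endothelial scores of SUS_LE lie above those of SUS.

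Among neuronal genes, several genes of GABA signalling stood higher and several postsynaptic scaffold genes lower. Of 31 genes of GABA synthesis, GABA receptors and interneurons, 8 were higher and 2 lower at an unadjusted p of 0.05 (median 0.02). Of the 31, 16 stood higher and 15 lower at any p. The median ran from −0.02 without SUS_LE 2 to 0.07 without SUS_LE 1, so its sign rests on single libraries. Gabra5, the alpha subunit of extrasynaptic GABA-A receptors in hippocampus, stood at 182, 194 and 167 CPM in SUS_LE and 149, 164 and 149 in SUS (log2 fold change of 0.23, SE 0.06, adjusted p = 0.126 by edgeR). Gphn, gephyrin, which anchors GABA receptors, stood at 65.6, 64.6 and 61.3 against 48.5, 59.7 and 52.7 (log2 fold change of 0.25, SE 0.07, adjusted p = 0.141 by edgeR). Both were separate between groups, and DESeq2 called Gabra5. Gad2, which makes GABA, overlapped (0.18, SE 0.06).

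Of 48 glutamate receptor and postsynaptic genes, 9 were lower and 3 higher at an unadjusted p of 0.05 (median −0.04). That median ran from −0.08 without SUS 3 to −0.0003 without SUS 1. Beside Shank1, Dlgap3, which links Shank to PSD-95, stood at 166, 157 and 157 CPM in SUS_LE and 213, 175 and 170.0 in SUS (log2 fold change of −0.22, SE 0.07, adjusted p = 0.195 by edgeR). SUS 1 was the highest library in both. The kainate receptor Grik2 stood higher (0.18, SE 0.06). In synaptic vesicle release 6 of 41 genes were lower and 1 higher (median −0.03), led by complexin Cplx1 (log2 fold change of −0.20, SE 0.06, adjusted p = 0.139 by edgeR), liprin Ppfia3 (log2 fold change of −0.23, SE 0.07, adjusted p = 0.147 by edgeR) and the syntaxin Stx1a (−0.21, SE 0.06). The median of this list ran from −0.09 without SUS 3 to 0.002 without SUS 2, and was −0.006 without SUS 1. DESeq2 called Cplx1 and Ppfia3, and Cplx1 stood at 394, 405 and 382 CPM against 479.8, 443 and 437, with SED lower at 368, 406 and 373.

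Potassium channel genes had 9 of 54 members higher and 3 lower at an unadjusted p of 0.05 (median 0.01). That median ran from −0.03 without SUS 3 to 0.03 without SUS 1. Kcnj3, the GIRK1 subunit gated by G proteins, stood at 205, 201 and 207 CPM in SUS_LE and 173, 185 and 168 in SUS (log2 fold change of 0.22, SE 0.05, adjusted p = 0.102 by edgeR). Kcnd2, the A-type channel Kv4.2 of dendrites, stood at 135, 135 and 130.0 against 107, 121 and 114 (log2 fold change of 0.23, SE 0.05, adjusted p = 0.116 by edgeR), and Kcnq5, of the M current, at 128, 133 and 108 against 94.2, 114 and 102 (0.26, SE 0.08). Kcnj9, the GIRK3 subunit, stood lower (log2 fold change of −0.24, SE 0.07, adjusted p = 0.144 by edgeR). Kcnj3, Kcnd2 and Kcnj9 were separate between groups. Sodium and calcium channels had 4 of 29 higher and 4 lower, with Scn3a (0.26, SE 0.07) and the auxiliary Cacna2d1 (0.14, SE 0.05) higher and Cacna2d2 (−0.23, SE 0.08) and the pacemaker channel Hcn2 (−0.19, SE 0.07) lower. Transcript GC content was 37.9% (Grik2) to 48.1% (Gphn) in the 9 genes named as higher in these neuronal lists and 55.8% (Cacna2d2) to 65.4% (Hcn2) in the 8 named as lower, so the ranges did not overlap.

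Cilium genes showed no common direction. Among 20 rootlet and centrosome scaffold genes, 3 were lower and 2 higher at an unadjusted p of 0.05 (median −0.01). The 3 lower ones, Crocc, Cep170b and Cep250, were all called by DESeq2 and with the choroid plexus term. Cep250, the centriole linker protein C-Nap1 that anchors rootletin, stood at 48.5, 45.99 and 44.7 CPM in SUS_LE, 61.8, 54.8 and 53.9 in SUS and 57.4, 52.2 and 55.6 in SED (log2 fold change of −0.29, SE 0.07, adjusted p = 0.107 by edgeR). Cep170 itself stood higher, at 135, 141 and 138 against 117, 134 and 118 (log2 fold change of 0.17, SE 0.06, adjusted p = 0.194 by edgeR), so that this gene and its relative Cep170b, with GC contents of 43.1% and 60.7%, differed in direction. Of 42 genes of intraflagellar transport and the BBSome, 3 were lower (7.14%, near the 6.49% of all tested genes) and 0 higher (median 0.00). The lower ones were Ift46 (−0.20, SE 0.08), Tulp3, which brings receptors into cilia (−0.25, SE 0.11), and the motor Kif3a (−0.11, SE 0.05). Ift88, the subunit most used to ablate cilia, overlapped at 19.4, 20.5 and 20.4 against 19.8, 20.96 and 18.7 CPM (log2 fold change of 0.02, SE 0.09, adjusted p = 0.950 by edgeR).

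Of 39 transition zone and basal body genes 3 were higher and 1 lower at an unadjusted p of 0.05 (7.69% and 2.56%, against 7.2% and 6.49% of all tested genes). They were Mib1 (0.12, SE 0.05), Pcm1 of centriolar satellites (0.14, SE 0.06), Ofd1 (0.24, SE 0.10) and, lower, Tctn2 (−0.32, SE 0.13). Of 40 genes of the ciliary membrane and Hedgehog signalling 6 were higher and 1 lower (median 0.02). Rab10, a small GTPase of membrane transport, stood at 189.8, 196 and 191 CPM in SUS_LE and 164, 179 and 163 in SUS (log2 fold change of 0.19, SE 0.05, adjusted p = 0.138 by edgeR). Npy2r, a neuropeptide Y receptor found in cilia, stood at 51.3, 54.1 and 44.3 against 39.7, 40.5 and 39.9 (log2 fold change of 0.32, SE 0.09, adjusted p = 0.138 by edgeR), and Rab23, a brake on Hedgehog signalling, at 25.8, 23.3 and 22.3 against 20.2, 21.03 and 20.8 (0.20, SE 0.08). These 3 were separate between groups. Arl13b, the GTPase of the ciliary membrane, stood at 8.49, 8.38 and 8.65 CPM in SUS_LE, 6.19, 7.29 and 8.22 in SUS and 8.43, 10.2 and 7.77 in SED (log2 fold change of 0.23, SE 0.15, adjusted p = 0.496 by edgeR), with every exercised library slightly above SUS 3. Adcy3, the adenylyl cyclase of neuronal cilia, overlapped at 45.4, 43.8 and 45.95 against 44.1, 50.2 and 45.2 (log2 fold change of −0.04, SE 0.07, adjusted p = 0.826 by edgeR).

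Genes best known from exercise studies did not pass an adjusted p of 0.05 by edgeR, as was true of every tested gene. Bdnf, the neurotrophin most often linked to running, stood at 35.4, 38.5 and 36.6 CPM in SUS_LE and 35.7, 39.00 and 33.2 in SUS (log2 fold change of 0.04, SE 0.08, adjusted p = 0.898 by edgeR), and its receptor Ntrk2 at 544, 571 and 593 against 549, 615 and 579 (log2 fold change of −0.03, SE 0.06, adjusted p = 0.868 by edgeR). Igf1 (0.02, SE 0.12), Ppargc1a, a coactivator of mitochondrial biogenesis (−0.01, SE 0.06), Fndc5, the precursor of irisin (−0.09, SE 0.08), and Vegfa (−0.10, SE 0.07) had edgeR adjusted p values of 0.966, 0.967, 0.682 and 0.541. These values do not show that the levels were alike. Vgf, a secreted neuropeptide precursor, stood at 109.6, 109.7 and 99.5 against 122, 123 and 106 (log2 fold change of −0.14, SE 0.06, adjusted p = 0.333 by edgeR). Of the 35 genes in this list 3 were higher and 3 lower at an unadjusted p of 0.05 (8.57% each, against 7.2% and 6.49% of all tested genes). They include Ldhb, a lactate dehydrogenase subunit (−0.16, SE 0.05), Slc16a7, the neuronal lactate and pyruvate transporter MCT2 (49.5, 49.7 and 49.5 against 42.6, 45.2 and 43.9 CPM, 0.18, SE 0.06), the deacetylase Sirt1 (0.27, SE 0.10) and the neurotrophin receptor Ntrk3 (0.15, SE 0.06). The groups were separate in Ldhb, Slc16a7 and Sirt1 and overlapped in Ntrk3.

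Corticosteroid genes had 6 of 29 members higher and 3 lower at an unadjusted p of 0.05 (median 0.05). Nr3c1, the glucocorticoid receptor, stood at 88.8, 87.3 and 85.4 CPM in SUS_LE and 75.7, 83.6 and 77.9 in SUS (log2 fold change of 0.14, SE 0.06, adjusted p = 0.333 by edgeR), and Nr3c2, the mineralocorticoid receptor, at 170.4, 179 and 137 against 128, 136 and 141 (log2 fold change of 0.26, SE 0.11, adjusted p = 0.363 by edgeR). The groups were separate in Nr3c1 and overlapped in Nr3c2 through SUS_LE 3. Hif3a, a glucocorticoid-responsive gene in brain, stood at 4.72, 6.95 and 4.90 against 4.06, 2.78 and 3.22 (log2 fold change of 0.72, SE 0.21, adjusted p = 0.148 by edgeR), Errfi1, an inhibitor of EGF receptors, at 32.6, 35.1 and 31.3 against 25.9, 25.2 and 29.4 (0.30, SE 0.10), and the receptor chaperone Fkbp4 lower (−0.17, SE 0.06). Fkbp5, the stress-induced cochaperone of the receptor, overlapped at 45.2, 49.3 and 33.7 against 43.6, 40.5 and 35.9 (log2 fold change of 0.10, SE 0.14, adjusted p = 0.811 by edgeR).

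Immediate early genes, switched on by firing of neurons, had 4 of 32 members lower and 1 higher at an unadjusted p of 0.05 (median −0.03). Jund stood at 50.6, 45.9 and 49.5 CPM in SUS_LE and 57.7, 58.02 and 58.05 in SUS (log2 fold change of −0.25, SE 0.07, adjusted p = 0.133 by edgeR), Per1, also a clock gene, at 60.6, 58.9 and 61.1 against 76.5, 64.9 and 69.1 (log2 fold change of −0.22, SE 0.07, adjusted p = 0.180 by edgeR), and Nr4a1 at 34.02, 34.8 and 39.3 against 47.2, 47.3 and 37.6 (log2 fold change of −0.29, SE 0.09, adjusted p = 0.171 by edgeR). Jund and Per1 were separate, and Nr4a1 of SUS_LE 3 exceeded SUS 3. The 1 higher member was Ptgs2. Fos (−0.02, SE 0.20), Arc (−0.16, SE 0.09) and Npas4 (−0.37, SE 0.19) overlapped, with edgeR adjusted p values of 0.980, 0.454 and 0.416. Npas4 stood at 14.99, 13.3 and 21.7 CPM in SUS_LE, 24.4, 21.03 and 19.3 in SUS and 13.2, 15.5 and 11.02 in SED.

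Families of the leading genes were mixed as well. Of 15 Dock and Elmo genes 5 were higher and 1 lower at an unadjusted p of 0.05 (median 0.07), with Dock4 at 277, 319 and 269.8 CPM in SUS_LE and 226, 262 and 241 in SUS (log2 fold change of 0.25, SE 0.07, adjusted p = 0.148 by edgeR) and Dock11 at 17.1, 20.7 and 19.1 against 15.2, 14.2 and 15.01 (0.36, SE 0.11). Of 27 Arf GTPase-activating and related genes 3 were higher, Acap2, Git2 (0.19, SE 0.07) and Agfg1 (0.14, SE 0.06), and 0 lower (median −0.04). Of 16 Integrator genes 3 were higher and 2 lower, with Ints6l and Ints6 (0.24, SE 0.08) higher and Ints1 (log2 fold change of −0.24, SE 0.06, adjusted p = 0.132 by edgeR) and Ints3 (−0.15, SE 0.06) lower. Autophagy and lysosome genes had 4 of 52 higher and 3 lower (7.69% and 5.77%), near the 7.2% and 6.49% of all tested genes. Lyst stood higher, and Map1lc3a, Gabarap, which like LC3 is attached to autophagosome membranes (−0.18, SE 0.06), and Ctsd, the protease cathepsin D (129, 136 and 137 against 141, 161 and 192 CPM, −0.30, SE 0.09), stood lower. SUS 3, the library richest in Ttr, was also the highest in Ctsd. Of 34 actin and non-muscle myosin genes 4 were lower and 2 higher, with Myo18a (−0.21, SE 0.06), the formin Diaph1 (−0.16, SE 0.06) and the light chain Myl6 (−0.15, SE 0.06) after Myh14.

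Markers of tissue next to the ventral hippocampus differed between libraries. All 20 choroid plexus genes stood lower in SUS_LE (median −2.04), with 0 under an unadjusted p of 0.05, and the median was −1.05 without SUS 3 and −3.47 without SUS_LE 2. Folr1, a folate receptor, stood at 0.684, 5.20 and 0.681 CPM in SUS_LE and 0.481, 14.2 and 29.2 in SUS (log2 fold change of −2.72, SE 1.27, adjusted p = 0.422 by edgeR), Aqp1, a water channel, at 0.548, 3.25 and 0.408 against 0.344, 7.70 and 20.97, and Prlr, the prolactin receptor, at 5.34, 23.2 and 5.99 against 5.29, 47.5 and 93.00. Each was low in SUS 1, SUS_LE 1 and SUS_LE 3, like Ttr. Ependymal and motile cilium genes had 32 of 39 lower and 7 higher (median −0.40, and 0.02 with the choroid plexus term), with 4 lower at an unadjusted p of 0.05: Cfap45 (−0.71, SE 0.28), Spef2 (−0.46, SE 0.19), Rsph1 (−0.89, SE 0.34) and Rsph9 (−0.31, SE 0.14). The median of this list was −0.13 without SUS 3, −0.25 without SUS_LE 3 and −0.61 without SUS 1.

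Dentate granule cell genes had 16 of 18 higher and 2 lower (median 0.15, and 0.09 without SUS 2, the lowest library in their mean level), with 4 higher at an unadjusted p of 0.05. Prox1, their defining transcription factor, stood at 107, 99.9 and 92.9 CPM in SUS_LE, 87.9, 75.5 and 74.3 in SUS and 108, 88.9 and 118 in SED (log2 fold change of 0.34, SE 0.11, adjusted p = 0.211 by edgeR), and Stxbp6 (0.19, SE 0.07), Rfx3 (0.17, SE 0.07) and Npnt (0.33, SE 0.14) followed. Of 21 pyramidal cell markers 14 stood lower and 7 higher (median −0.08, and −0.01 without SUS 2 and −0.03 without SUS 1). At an unadjusted p of 0.05 there were 2 higher and 0 lower, Cpne4 (log2 fold change of 0.30, SE 0.06, adjusted p = 0.0984 by edgeR) and Man1a (0.20, SE 0.07), and Wfs1 of CA1 varied within groups (85.01, 75.03 and 122 CPM against 139, 147 and 109). Adult neurogenesis genes had 19 of 22 lower and 3 higher (median −0.11, and −0.02 without SUS 1, −0.06 without SUS_LE 2 and −0.07 without SUS 3), with 2 lower at an unadjusted p of 0.05, the neuronal tubulin Tubb3 (log2 fold change of −0.23, SE 0.06, adjusted p = 0.141 by edgeR) and the progenitor filament Nes (−0.36, SE 0.14). Globin and heme genes had 3 of 10 lower at an unadjusted p of 0.05 (median −0.33, and −0.17 without SUS_LE 2, −0.21 without SUS 1 and −0.53 without SUS_LE 3), with Hba-a2 at 31.2, 32.7 and 38.3 CPM in SUS_LE and 58.9, 39.8 and 71.1 in SUS (log2 fold change of −0.73, SE 0.21, adjusted p = 0.209 by edgeR). The parts of choroid plexus, vessel, blood and subfield content in the differences named here were not tested beyond the fit with the choroid plexus term.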

How the data were processed

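Total RNA of ventral hippocampus from 9 libraries, each titled as a separate mouse, was measured in 3 groups of 3. The deposited files hold raw counts per gene symbol, made by the authors with fastp, STAR and Salmon on GRCm39, per the submitters' processing notes. Per the labels' protocols, RNAiso Plus served for extraction and CORALL RNA-seq V2 for library preparation. Annotation, strand setting, molecular identifiers and tool versions are not given in the sources used here, so overlapping genes and near-identical copies are uncertain. All libraries carry 1 batch number in the labels.

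Genes were kept by edgeR's expression filter with group sizes, scaled by TMM factors and fitted over the 9 libraries in edgeR's robust quasi-likelihood model with no term but group (edgeR 4.0.16, R 4.3.3). Adjustment was by Benjamini-Hochberg over 16106 genes with a threshold of 0.05. Alternatives used DESeq2 1.42.0, limma voom 3.58.1, other filters and scalings, a choroid plexus score (mean log2 CPM of 20 genes) as a term, GC and length trends removed by offsets, a replicate block, and single libraries left out. List levels are means of log2 CPM with a prior count of 2. GC content and length are those of the longest GENCODE M21 (GRCm38) transcript, matched by symbol or older symbol for 91.8% of tested genes. The matches were not checked gene by gene. The values given to the mitochondrial COX1 (51.0% GC, 2867 bases) may belong to another gene with that older symbol. Promoters came from RefSeq (GRCm38.p6).

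The comparison, the gene lists and the rules for named genes were chosen with earlier results of these data known, so lists are described by counts and medians and not tested. Of 1363 genes in 49 lists 1352 were in the files and 1321 were tested. Named genes had a mean log2 CPM above 0 and were the 12 of smallest edgeR p per direction, the 8 of largest fold per direction without overlap under an unadjusted p of 0.05, the 8 of smallest p per direction with the choroid plexus term, up to 4 members of smallest p per list, and a fixed set of cilium, exercise and stress genes. A few genes that these rules name are not reported here. A count of 0 allows up to 3 counts, 0.195 to 0.208 CPM in the 6 libraries compared, which covers counting error only. Comparisons with SED share libraries with the main one, so SED values are only set side by side.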

Additional observations from a re-analysis of the deposited data

How the results depend on the processing

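The count of genes at an adjusted p of 0.05 was 0 by edgeR, by limma voom, with RLE, upper quartile or total count scaling, with a stricter filter and with GC and length trends removed. It was 180 by DESeq2, 73 by DESeq2 without independent filtering, 430 without an expression filter, 429 with the choroid plexus term, 20 with the 3 Ttr-poorest libraries left out, and 1 with only the 6 libraries compared and with dispersion fitted without the robust step. Leaving out single libraries gave 0 to 184. Chosen after seeing the data were the choroid plexus term with GC and length trends removed, which gave 29, and that term with single libraries left out, which gave 4, 868 and 449 without SUS 1 to 3 and 72, 305 and 527 without SUS_LE 1 to 3. At an unadjusted p of 0.05 the count of 2205 was 1420 with GC and length trends removed and 879 with the choroid plexus term and without SUS 1. The cause of these shifts was not tested.

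Replicate numbers are those of the library titles. The column headers of the counts number the exercised libraries differently, so a shared number holds for the titles only. By title, replicate numbers showed no regular pairing of the libraries: the correlation of same-numbered SUS_LE and SUS deviations was 0.31, 0.22 and −0.13. SUS_LE 1 correlated best with SUS 1, but SUS_LE 2 with SUS 3 (0.28). Deviations from a mean of 3 libraries are not independent, so this check cannot exclude a pairing. The fit with a replicate block called 1 gene.

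Of 5879 combinations of a named gene and a setting 5080 kept direction and side of the threshold, 721 passed the adjusted p and 78, in 16 genes, changed sign, mostly in genes near 0. These log2 fold changes follow. With GC and length trends removed it was Adcy3 0.035, Bdnf −0.046, Fos 0.012, Ift88 −0.059 and Igf1 −0.10. With the choroid plexus term it was Fos 0.12, Ppargc1a 0.051 and Ttr 0.64. With that term and those trends removed it was Adcy3 0.054, Arc 0.064, Bdnf −0.062, Fos 0.14, Grik2 −0.033, Ift88 −0.081, Igf1 −0.14 and Ttr 0.59. By limma voom it was Zbtb20 0.0041. With total counts only it was Ift88 −0.0093 and Igf1 −0.011. Without the 3 libraries lowest in Ttr, which leaves SUS_LE 2 alone in its group, it was Dbp −0.081, Fndc5 0.049, Igf1 −0.055 and Zbtb20 0.12. Without SUS 1 but with that term it was Agfg1 −0.036, Arc 0.0055, Dbp −0.18, Fndc5 0.038, Igf1 −0.0028, Ttr 0.66 and Zbtb20 0.20. Without SUS 2 but with that term it was Adcy3 0.0079, Fos 0.18, Gfap −0.068, Igf1 −0.066, Ntrk2 0.023, Ppargc1a 0.064 and Ttr 0.88. Without SUS 3 but with that term it was Bdnf −0.0030, Fos 0.12, Ift88 −0.012, Ppargc1a 0.039 and Ttr 0.51. Without SUS_LE 1 but with that term it was Fos 0.15, Gfap −0.0084, Igf1 −0.020, Ntrk2 0.020, Ppargc1a 0.079 and Ttr 0.65. Without SUS_LE 2 but with that term it was Adcy3 0.014, Bdnf −0.0085, Fkbp5 −0.12, Fos 0.29, Gfap −0.0035, Ift88 −0.0055, Ntrk2 0.022, Ppargc1a 0.053 and Ttr 0.28. Without SUS_LE 3 but with that term it was Fos 0.021, Igf1 −0.0046, Ppargc1a 0.022 and Ttr 0.69. Over single libraries left out the ranges were Adcy3 −0.080 to 0.011, Bdnf −0.023 to 0.094, Fkbp5 −0.020 to 0.24, Fos −0.20 to 0.080, Gfap −0.049 to 0.12, Ift88 −0.024 to 0.057, Igf1 −0.068 to 0.089, Ntrk2 −0.068 to 0.010, Ppargc1a −0.071 to 0.037 and Zbtb20 −0.10 to 0.047. List medians moved by more than the spread between libraries in 129 of 1470 combinations of a list and a setting, in 37 of 49 lists, and 16 lists had a median that changed sign with 1 SUS or SUS_LE library left out. Depth leaves genes near 1 CPM imprecise.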

Other observations

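Further gene families had medians between −0.07 and 0.02, against 0.00 over all tested genes. Cytosolic ribosomal protein genes had 2 of 75 members higher and 8 lower at an unadjusted p of 0.05 (median log2 fold change −0.01), with Rps7 higher (0.18, SE 0.05) and Rplp2 (−0.19, SE 0.05), Rpl8 (−0.17, SE 0.06) and Rps15a (−0.14, SE 0.05) lower. Glycolysis and lactate genes had 2 of 30 higher and 5 lower (median −0.06). The lower ones include the hexokinase Hk1, at 310.2, 316 and 306 CPM in SUS_LE and 375, 339 and 335 in SUS (log2 fold change of −0.17, SE 0.05, adjusted p = 0.174 by edgeR), and the pyruvate dehydrogenase kinase Pdk2 (−0.15, SE 0.05). Cholesterol genes had 4 of 29 lower and 0 higher (median −0.04): Pmvk, of the mevalonate pathway, at 15.9, 14.2 and 14.8 against 19.5, 18.6 and 19.9 CPM (log2 fold change of −0.37, SE 0.09, adjusted p = 0.116 by edgeR), the lysosomal cholesterol carrier Npc2 (−0.39, SE 0.10), Cyp46a1, which clears cholesterol from neurons (−0.16, SE 0.06), and the regulator Srebf2 (−0.14, SE 0.05). Pmvk was separate between groups. Circadian clock genes had 2 of 21 higher, Bhlhe40 (0.21, SE 0.09) and Dbp (0.25, SE 0.11), and 1 lower, Per1. The value of Dbp was below 0 in the fit without the 3 libraries lowest in Ttr, which leaves SUS_LE 2 alone in its group. Of 33 heat shock genes Dnajc6 was higher (0.16, SE 0.06) and Hspe1 lower (−0.16, SE 0.07).

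Of 16 tubulin genes 14 stood lower and 2 higher (median −0.07), with 3 lower at an unadjusted p of 0.05, among them Tuba4a at 238, 241 and 236 CPM in SUS_LE, 285, 266 and 256 in SUS and 224, 228 and 222 in SED (log2 fold change of −0.17, SE 0.05, adjusted p = 0.146 by edgeR). Of 25 kinesins 3 were lower and 1 higher: Kif1c (log2 fold change of −0.33, SE 0.09, adjusted p = 0.138 by edgeR) and Kif1a (−0.15, SE 0.06), a carrier of synaptic vesicle precursors, stood lower, and the conventional kinesin Kif5b stood higher (0.19, SE 0.06). Of 45 splicing factors 7 were higher and 4 lower, with Srsf7 at 78.1, 77.9 and 80.1 against 71.3, 67.6 and 67.8 CPM (log2 fold change of 0.19, SE 0.05, adjusted p = 0.145 by edgeR), Hnrnpk (0.17, SE 0.05), Srsf10 (0.20, SE 0.06) and the neuronal Ptbp2 (0.17, SE 0.06) higher. DESeq2 called Tuba4a, Kif1c, Kif1a, Hnrnpk and Hk1 at an adjusted p of 0.05. Of the noncoding RNAs, Snhg14 stood higher (0.28, SE 0.08) and Meg3 lower (3806, 3520.4 and 3831 CPM in SUS_LE against 4724, 3937 and 3912 in SUS, −0.17, SE 0.07).

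Cortex and amygdala markers had 3 of 19 members higher and 0 lower at an unadjusted p of 0.05 (median −0.05), striatal markers 1 of 14 in each direction (median −0.04) and markers of thalamus and habenula 0 of 15 (median −0.03).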
